A study of Mus musculus with 11 samples.

Results

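The keratin genes of neonatal mouse skin, other than the wound and stem cell keratins Krt6a, Krt6b, Krt15, Krt16 and Krt17, were followed through depletion of regulatory T cells (Tregs). Members were all genes whose symbol is Krt followed by a number and at most the letter a or b. The rule left 49 of the 49315 genes in the count table: 16 epidermal, 8 inner root sheath, 15 hair shaft and 6 simple keratins, and 4 genes (Krt42, Krt88, Krt90 and Krt222) that were not classed. Of these, 46 passed the filter on low counts, and Krt13, Krt76 and Krt88 did not. The rule used names and no measured value.

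Bulk RNA sequencing was carried out on whole skin of 11 Foxp3-DTR mice, with 1 library from each. All of them, controls included, carried the diphtheria toxin (DT) receptor under the Foxp3 promoter on a C57BL/6J background, so that DT removes Foxp3-expressing Tregs. The 2 Treg-sufficient control mice received PBS. The 3 ΔETreg mice received DT at 30 ng per g on P6 and P8 and were harvested on P9. The 3 ΔLTreg mice received it on P10 and P12 and were harvested on P13. The 3 ΔTreg mice received it on P6, P8, P10 and P12 and were harvested on P13. The harvest day of the controls is missing from the labels, and the study describes PBS controls for both days. Age and depletion therefore cannot be told apart where ΔETreg, ΔLTreg or ΔTreg skin was compared with control. They cannot be told apart between ΔETreg and ΔLTreg skin either, whereas ΔTreg and ΔLTreg skin was of the same age. Every comparison with control shares the same 2 PBS libraries.

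Keratins are the intermediate filament proteins of epithelia. They work as pairs of an acidic type I and a basic type II protein, and the pair in use marks the position and state of a keratinocyte. In the epidermis, basal cells make Krt5 and Krt14 and switch to Krt1 and Krt10 once they move up and differentiate. In a growing follicle, the inner root sheath, the sleeve that moulds the hair, makes Krt25 to Krt28 and Krt71 to Krt74, while the cortex and cuticle of the hair shaft make the cysteine-rich hair keratins. Krt8 and Krt18 are the pair of simple epithelia, such as glands, and of Merkel cells, the touch cells of the epidermis.

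Because the inner root sheath keratins lie side by side in a type I cluster on chromosome 11 and a type II cluster on chromosome 15, the bases before their start sites are shown. The RefSeq promoters on GRCm38.p6 covered 36 of the 49 members. For 5 sheath keratins, and for Krt10 and Krt24, whose levels are described further on, the 60 bases before the start are given 5′ to 3′, with the letters TATAAA, the TATA box, in capitals.
Krt25: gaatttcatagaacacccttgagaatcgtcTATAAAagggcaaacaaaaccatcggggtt
Krt27: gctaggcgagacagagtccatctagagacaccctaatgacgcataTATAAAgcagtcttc
Krt28: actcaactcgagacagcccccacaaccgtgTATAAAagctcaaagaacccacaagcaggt
Krt72: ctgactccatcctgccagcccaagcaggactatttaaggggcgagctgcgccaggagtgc
Krt73: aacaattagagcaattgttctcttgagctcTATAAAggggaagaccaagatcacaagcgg
Krt10: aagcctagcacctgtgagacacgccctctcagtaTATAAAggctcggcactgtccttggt
Krt24: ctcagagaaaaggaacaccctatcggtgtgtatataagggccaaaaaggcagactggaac

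All of these are read from the minus strand, Krt28 at chr11:99374904-99374963, Krt72 at chr15:101786521-101786580, Krt10 at chr11:99389365-99389424 and Krt24 at chr11:99285263-99285322. Within 250 bases before the start, on either strand, TATAAA occurred in 7 of 7 inner root sheath, 6 of 9 hair shaft and 3 of 13 epidermal keratin promoters, against 13% of 27025 promoters. In Krt72 and in the shaft keratin Krt84 the match lay farther out and on the other strand, and Krt24 had none. TGANTCA, the letters bound by AP-1 factors, occurred in 1 of 36 members (6.87% of all promoters), and TTCNNNGAA, a spacing used by STAT factors, in 4 of 36 (7.18%). These are matches of letters and not sites of binding.

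Total counts ranged from 23377571 to 34159435 per library. Foxp3 had only 9 to 23 counts in each mouse. At 0.348 to 0.526 CPM the ΔETreg mice lay below both controls (0.700 and 0.558 CPM), whereas their counts, and both the counts and the CPM of ΔLTreg and ΔTreg mice, overlapped those of the controls, so that depletion could not be checked firmly from it in whole skin. One library stood apart among the genes followed here: in ΔLTreg mouse 1, hair shaft keratins took 0.331% of all counts, against 0.963 to 1.37% in the other 10 mice. Results that rest on it are given with and without it. T cell markers (Cd3e, Cd3d, Cd3g, Cd8a and Cd4) summed to 40.6 to 49.1 CPM in ΔTreg and 10.1 to 15.4 CPM in all other mice, and macrophage markers (Adgre1, Csf1r, Cd68 and Mrc1) to 249 or more and 125 or less. All 5 melanocyte markers (Tyr, Tyrp1, Dct, Pmel and Mlana) and 2 of 4 fibroblast markers (Col1a1 and Col1a2) were lower in ΔTreg than in control skin. In bulk skin, fewer cells of a type and less RNA per cell cannot be told apart, and the part of these other cells in the keratin results was not tested.

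The 49 genes together took 4.08 to 5.70% of all counts. Inner root sheath keratins were the largest class, at 2.25% ± 0.292 (SD, n = 2) of counts in control, 2.30% ± 0.235 (n = 3) in ΔETreg, 2.66% ± 0.404 (n = 3) in ΔLTreg and 2.49% ± 0.0543 (n = 3) in ΔTreg skin. Epidermal keratins held 1.34% ± 0.0531, 1.36% ± 0.155, 1.43% ± 0.0758 and 1.44% ± 0.0197 in the same order. This class also holds Krt75, Krt79 and Krt80, of the follicle companion layer, the follicle opening and upper layers. Their means over all mice were 1303, 1170 and 563 CPM. Hair shaft keratins held 1.09% ± 0.157, 1.21% ± 0.219, 0.925% ± 0.535 and 1.12% ± 0.0449, and the ΔLTreg mean was 1.22% without mouse 1. The ranges of control and ΔTreg mice overlapped for inner root sheath and hair shaft keratins and did not for epidermal keratins. These sums were not tested. Simple keratins took 0.0314 to 0.0350% in all mice. Most of these counts were of Krt23, at a mean of 278 CPM over all mice, with Krt7 next at 23.2 CPM. The sum therefore says little of the other simple keratins.

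**Figure D1:**
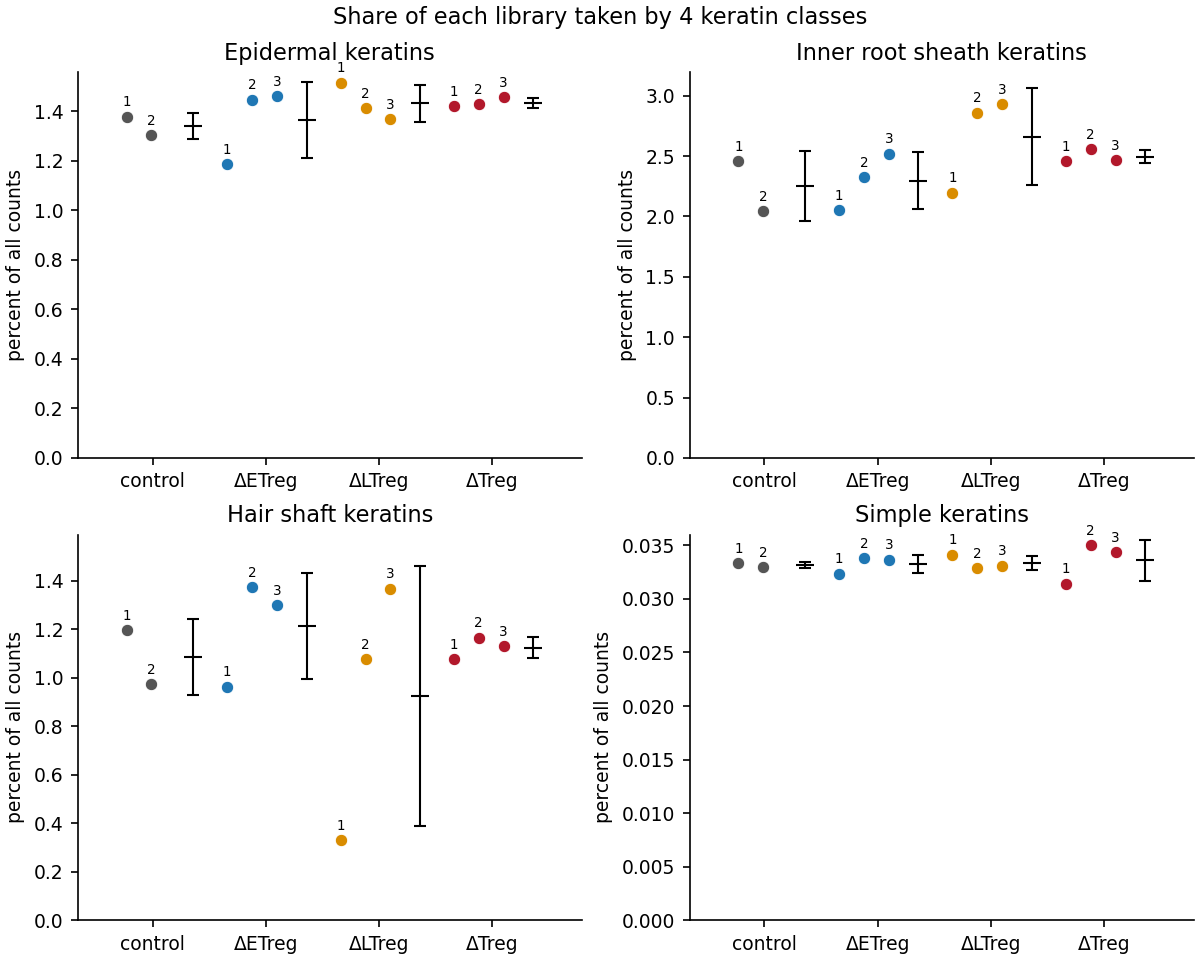
Percent of all counts taken by each keratin class in each mouse, by group, with the group mean and SD. ΔLTreg mouse 1 lies far from its group in hair shaft keratins, at 0.331%.

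Levels between genes were compared as CPM per kilobase of exon. Krt71, the main type II keratin of the inner root sheath, led in control skin with 4436 CPM per kb, and its 2 control mice lay above the range of the next gene. The type I sheath keratins Krt27 (2569) and Krt25 (2133 CPM per kb) overlapped, as did Krt25 and the basal keratin Krt5 (1831), whereas Krt5 and Krt14 (1446) did not. Krt10 (993) and the shaft keratin Krt83 (964 CPM per kb) came next and overlapped.

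The number of keratin genes that differed from control was 0 after early, 1 after late and 8 after full depletion. None of the 46 tested genes passed an adjusted p of 0.05 in edgeR's quasi-likelihood test for ΔETreg against control, where 0.00544% of all 18375 genes tested did. None had an unadjusted p under 0.05. DESeq2 called 0 keratin genes as well, and 0.106% of all genes. For ΔLTreg against control, Krt1 alone passed, as lower, against 4.55% of all genes (1.86% higher and 2.69% lower). For ΔTreg against control, 8 of 46 (17.4%) passed, against 21.5% of all genes. Krt14, Krt24, Krt28, Krt72 and Krt74 were higher (12.1% of all genes were), and Krt1, Krt8 and Krt10 were lower (9.39%). In this fit the share of these keratin genes called was below that of all genes, which did not hold in the first 3 alternatives given next. Of the 5 keratins that the rule left out, 3 passed as well, as given at the end. The median log2 fold change of the 46 tested genes was 0.02, beside -0.01 over all genes tested. By class, 4 of 14 epidermal, 3 of 8 inner root sheath, 0 of 15 hair shaft and 1 of 6 simple keratins passed.

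These counts moved with the libraries in the fit. Without ΔLTreg mouse 1, 13 keratin genes passed in ΔTreg against control, where 24.8% of all genes did. With the 5 libraries of these groups alone, edgeR called 16 keratin genes and 22.4% of all genes, and DESeq2 called 19 and 18.0%. The 8 genes were among them each time, and in these 3 fits the keratin genes were called more often than all genes. Without 1 of the ΔTreg mice fewer than 8 passed, and the share of all genes that passed there is not given here.

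**Figure D2:**
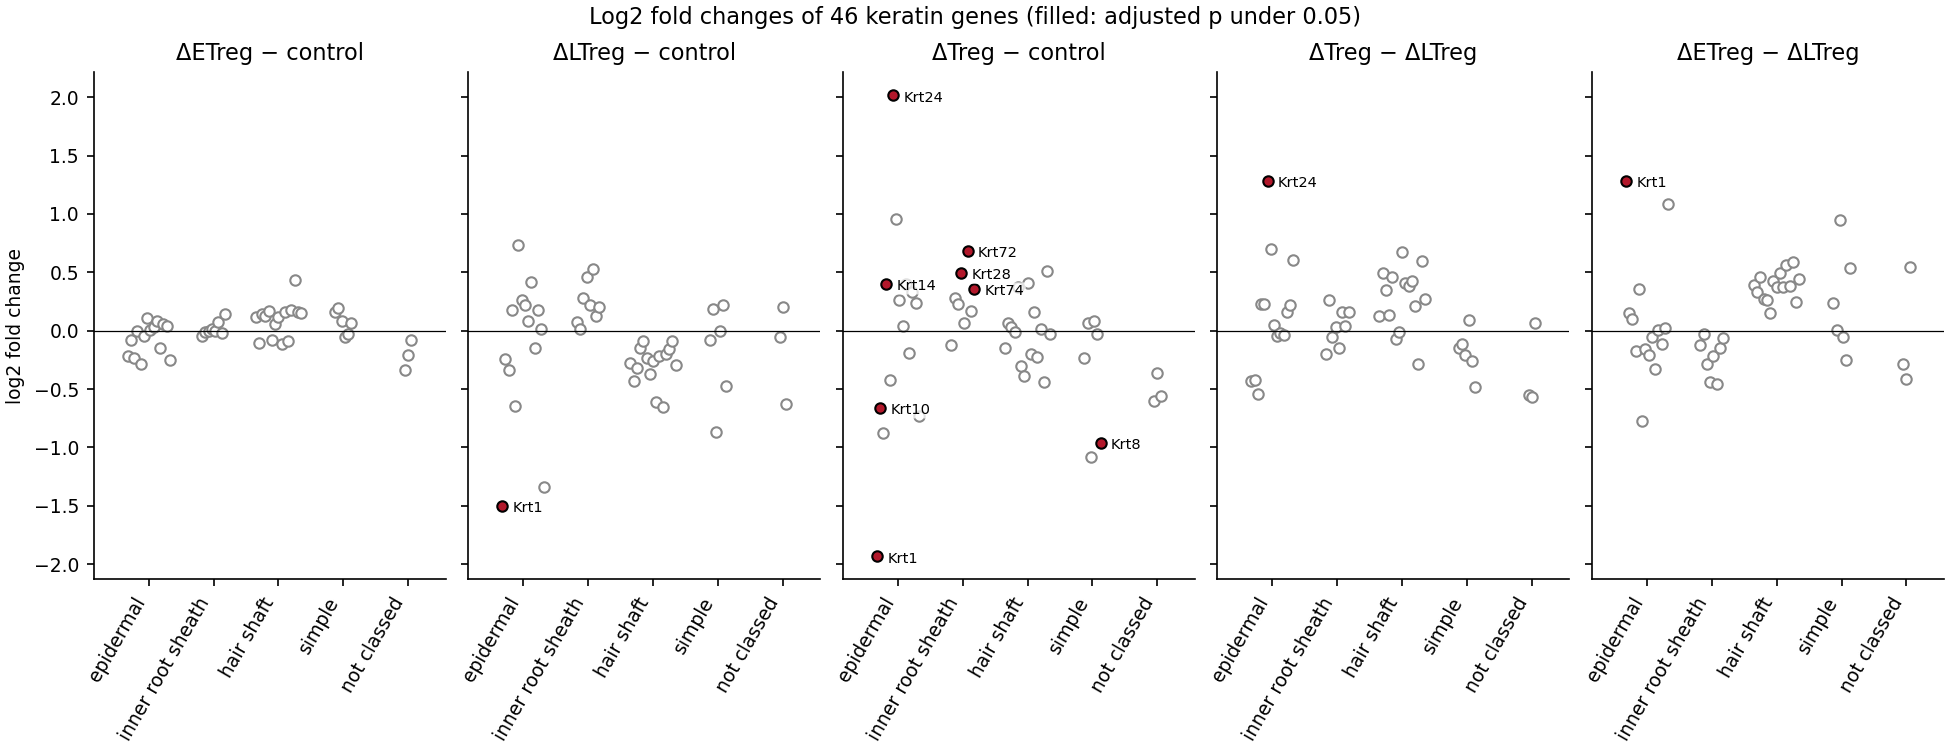
Log2 fold change of the 46 tested keratin genes, by class, in each of 5 comparisons, with genes past an adjusted p of 0.05 marked. None of the 15 hair shaft keratins passed in this fit of all 11 libraries.

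Krt1, the type II keratin of differentiating suprabasal cells (chromosome 15, 101845426 to 101850794, minus strand, GRCm38), had the largest change of the well-expressed members. It stood at 992 and 629 CPM in the controls, 421, 869.6 and 806 in the ΔETreg mice, 222, 326 and 313 in the ΔLTreg mice, and 219.8, 209 and 208 in the ΔTreg mice. All 6 ΔLTreg and ΔTreg mice lay below all 5 others. Krt1 was 2.83-fold lower in ΔLTreg than in control skin (log2 fold change -1.50, SE 0.28, adjusted p = 0.0141) and 3.82-fold lower in ΔTreg skin (-1.93, SE 0.28, adjusted p = 0.000664). Between ΔTreg and ΔLTreg mice, which were of the same age, the groups did not overlap, but the difference of -0.43 (95% interval -0.93 to 0.06) did not pass (adjusted p = 0.278, and 0.0174 in DESeq2).

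In ΔETreg skin the log2 fold change of Krt1 against control was -0.21 (SE 0.28). Compared directly, Krt1 was 2.44-fold higher in ΔETreg than in ΔLTreg skin (1.28, SE 0.26, adjusted p = 0.0162). It was the only keratin gene of 46 that passed there, where 6.38% of all genes did (3.27% higher and 3.12% lower). The call in ΔTreg skin held with each mouse left out in turn, with an adjusted p of at most 0.00800. The call in ΔLTreg skin was lost without control mouse 1 (-1.13, adjusted p = 0.116), and that of ΔETreg against ΔLTreg without ΔETreg mouse 2 or 3 (1.10 and 1.17). Both were also lost in edgeR with only the libraries compared (adjusted p = 0.0513 and 0.0547).

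Krt10, the type I partner of Krt1 (chromosome 11, 99385254 to 99389364, minus strand), moved less. It measured 2381 and 1817 CPM in the controls, 1364, 2277 and 2301 in the ΔETreg mice, 1632, 1895 and 1809 in the ΔLTreg mice, and 1219, 1345 and 1422 in the ΔTreg mice. The ΔTreg mice lay below all other mice except ΔETreg mouse 1, which fell within their range. Krt10 was 1.58-fold lower in ΔTreg than in control skin (-0.66, SE 0.20, adjusted p = 0.0357), and this call was lost without control mouse 1 (-0.45, adjusted p = 0.218) or without any 1 of the ΔTreg mice. Against ΔLTreg skin the value was -0.42 (adjusted p = 0.139, and 0.0186 with those libraries alone).

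Krt77, another type II keratin of suprabasal cells, did not share this direction. It read 1284 and 1089.9 CPM in the controls, 897, 1396 and 1480.5 in the ΔETreg mice, 1519.9, 1606 and 1615 in the ΔLTreg mice, and 1458, 1567 and 1662 in the ΔTreg mice. All 6 ΔLTreg and ΔTreg mice were above both controls. The log2 fold change of 0.40 in ΔTreg against control did not pass (SE 0.17, adjusted p = 0.134). With the libraries of ΔTreg and control mice alone it passed in edgeR (adjusted p = 0.0203) and in DESeq2 (0.000362). DESeq2 also called Krt77 in ΔLTreg against control (0.41, adjusted p = 0.00559).

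The basal pair had positive values in ΔTreg skin. Krt14 (chromosome 11, 100203162 to 100207548, minus strand) measured 2486 and 2598 CPM in the controls, 2332, 2701 and 2592 in the ΔETreg mice, 3141, 2904 and 2566 in the ΔLTreg mice, and 3532, 3279 and 3264 in the ΔTreg mice. The ΔTreg mice were above all others, and Krt14 was 1.32-fold higher than in control skin (0.40, SE 0.10, adjusted p = 0.018). The call was lost without either control mouse or without ΔTreg mouse 1. Krt5, its type II partner, was at 3817 and 4229 CPM in the controls, 3664, 4179.8 and 4274 in the ΔETreg mice, 5113, 4542 and 4373 in the ΔLTreg mice, and 4777, 4778 and 4936 in the ΔTreg mice. Its control and ΔTreg mice did not overlap, and its log2 fold change was 0.26 (SE 0.10, adjusted p = 0.0953). It passed with the libraries of those groups alone in edgeR (adjusted p = 0.0394) and DESeq2 (0.00222), and without ΔLTreg mouse 1 (0.0425).

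Within each mouse, the partners of the suprabasal pair came apart. The log2 ratio of Krt1 to Krt10 counts was -1.40 ± 0.19 (SD, n = 2) in control, -1.53 ± 0.16 (n = 3) in ΔETreg, -2.65 ± 0.20 (n = 3) in ΔLTreg and -2.64 ± 0.16 (n = 3) in ΔTreg skin. The 6 ΔLTreg and ΔTreg mice were separate from the other 5. The log2 ratio of Krt5 to Krt14 was 0.62 to 0.77 in the first 3 groups and 0.44 to 0.60 in ΔTreg mice. That of Krt71 to Krt25 was 1.19 ± 0.02 in control and 1.38 ± 0.04 in ΔTreg skin. A ratio shows unequal change of the partners, and these were not tested.

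**Figure D3:**
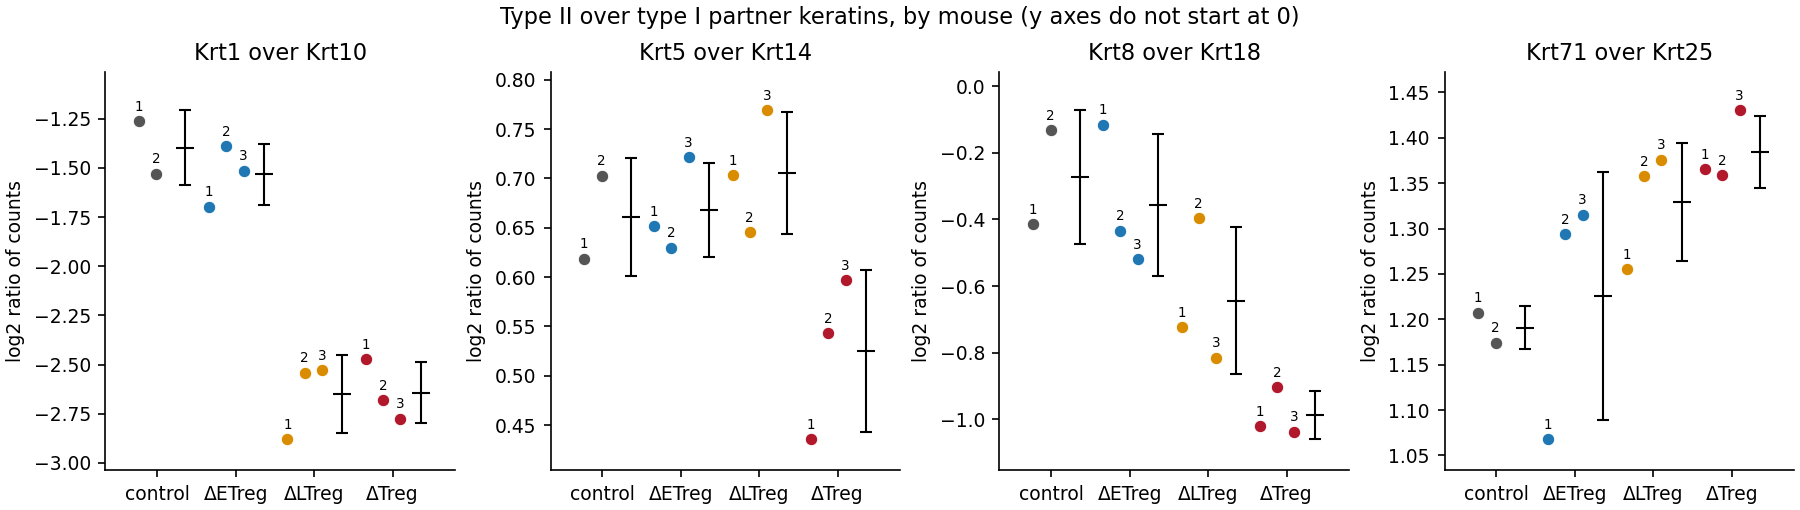
Log2 ratio of the counts of a type II keratin to those of its type I partner in each mouse, by group. Krt1 over Krt10 lies at -2.88 to -2.47 in the 6 ΔLTreg and ΔTreg mice and at -1.70 to -1.26 in the other 5.

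Krt75, a keratin of the companion layer of the follicle, was level at 1182 to 1387 CPM, and Krt79, of the follicle opening, ranged over 908 to 1384 CPM. Neither passed in any comparison with all 11 libraries in the fit, and DESeq2 called Krt79 higher in ΔTreg than in control skin (0.33, adjusted p = 0.0210). Krt24, a scarce type I keratin (chromosome 11, 99279959 to 99285262, minus strand), has a mean count under the minimum of 50 set for named genes and was chosen after its values were seen. It had 4 and 8 counts in the controls, 3, 10 and 5 in the ΔETreg mice, 12, 13 and 9 in the ΔLTreg mice, and 29, 28 and 24 in the ΔTreg mice. The ΔTreg mice were above all others. Krt24 was 4.04-fold higher in ΔTreg than in control skin (2.02, SE 0.47, adjusted p = 0.0116), a call lost without control mouse 1. It was 2.43-fold higher than in ΔLTreg skin (1.28, SE 0.37, adjusted p = 0.0342, 95% interval 0.57 to 2.00), as the only keratin gene of 46 that passed there, where 16.8% of all genes did (10.7% higher and 6.11% lower). That call was lost in DESeq2 (adjusted p = 0.0546) and without ΔETreg mouse 3, ΔLTreg mouse 1 or 3, or ΔTreg mouse 1 or 2.

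**Figure D4:**
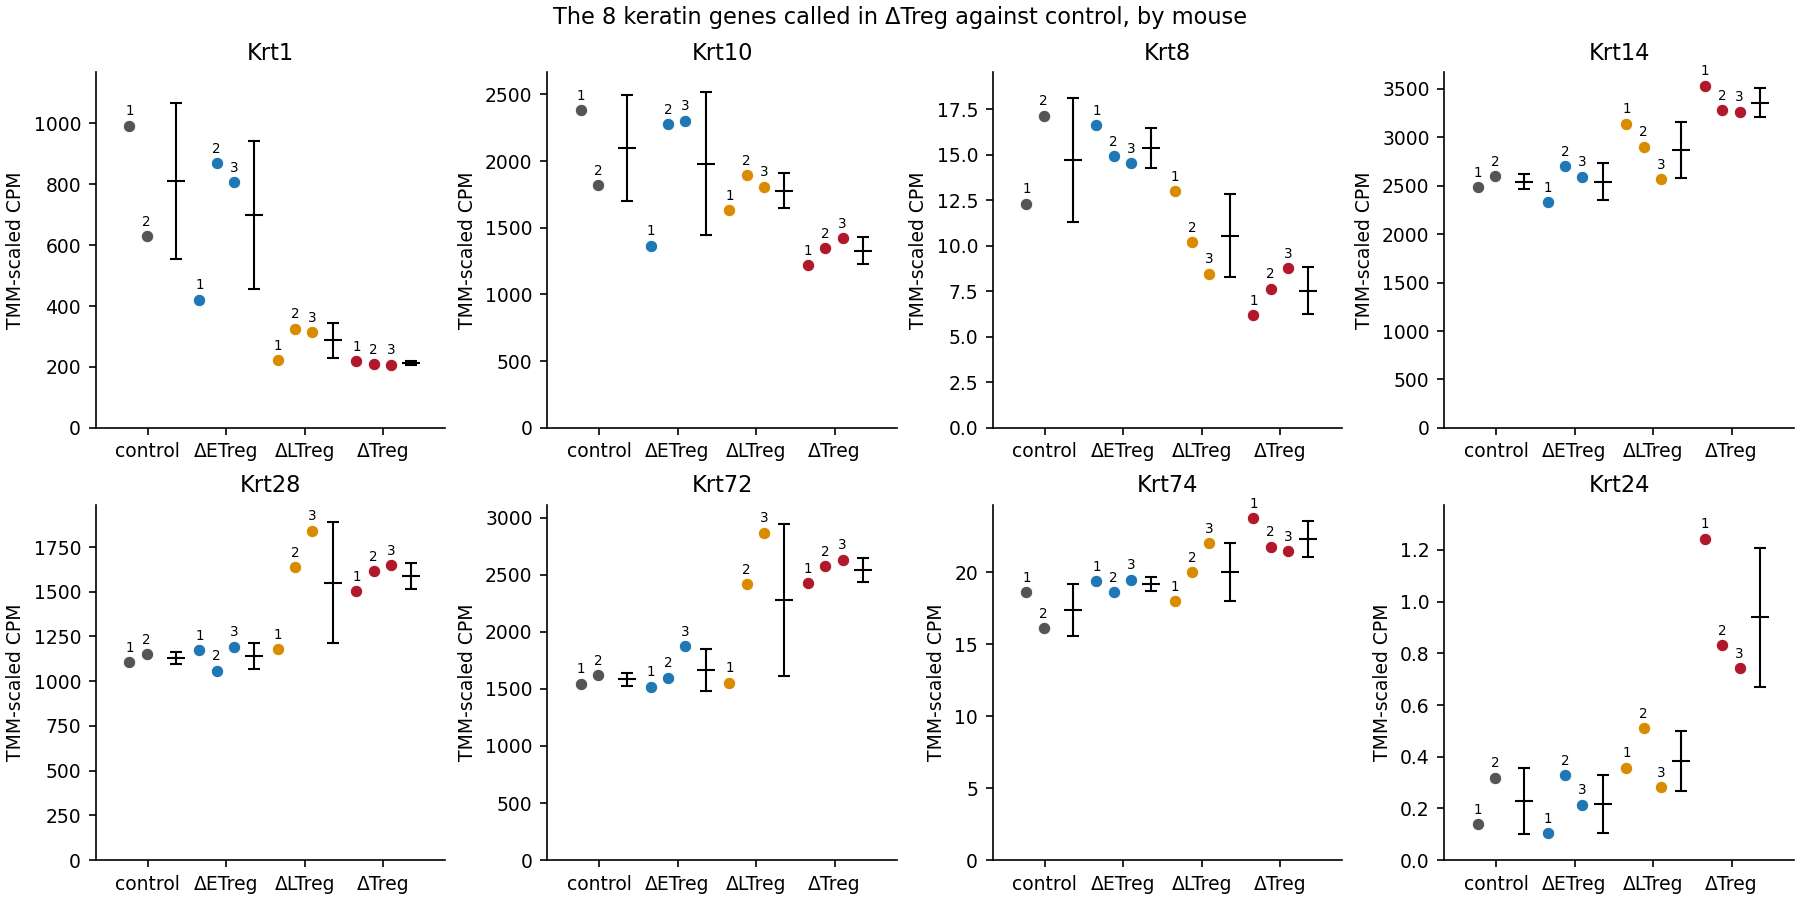
TMM-scaled CPM of the 8 keratin genes that passed in ΔTreg against control, with 1 point per mouse and the group mean and SD. Krt1 is low in all 6 ΔLTreg and ΔTreg mice, and Krt14 and Krt24 are highest in the 3 ΔTreg mice.

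Among inner root sheath keratins, Krt72 and Krt28 differed most. Krt72, a type II keratin of the sheath cuticle (chromosome 15, 101776172 to 101786460, minus strand), measured 1545 and 1621 CPM in the controls, 1521, 1597 and 1874 in the ΔETreg mice, 1555, 2415 and 2866 in the ΔLTreg mice, and 2427, 2576 and 2631 in the ΔTreg mice. The ΔTreg mice and ΔLTreg mice 2 and 3 were above all others. Krt72 was 1.61-fold higher in ΔTreg than in control skin (0.68, SE 0.20, adjusted p = 0.0327). Krt28, a type I sheath keratin (chromosome 11, 99364872 to 99374903, minus strand), was at 1105 and 1151 CPM in the controls, 1173, 1059 and 1194 in the ΔETreg mice, 1177, 1636 and 1841 in the ΔLTreg mice, and 1504, 1614 and 1647 in the ΔTreg mice, with the same 5 mice highest. It was 1.41-fold higher in ΔTreg skin (0.49, SE 0.15, adjusted p = 0.0387). Krt74, a scarce member at 16.1 to 23.8 CPM, was 1.28-fold higher (0.36, SE 0.10, adjusted p = 0.0223). Each of these calls depended on single mice. Krt72 was not called without either control or any 1 ΔTreg mouse (adjusted p up to 0.140), and Krt28 not without any 1 control, ΔETreg or ΔTreg mouse (up to 0.150). Krt74 was not called without control mouse 2 or ΔTreg mouse 1 (up to 0.214).

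In ΔLTreg skin these genes turned on mouse 1. With all 3 mice, the log2 fold changes of Krt72 and Krt28 against control were 0.53 (adjusted p = 0.165) and 0.46 (adjusted p = 0.115). Without mouse 1 they were 0.74 (adjusted p = 0.00755) and 0.63 (adjusted p = 0.00525), and Krt73 passed too (0.31, adjusted p = 0.0395). Against ΔLTreg skin without mouse 1, these 3 genes were also lower in ΔETreg skin (-0.67, -0.61 and -0.33).

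The most abundant sheath keratins did not pass in any comparison. Krt71 was at 11105 and 8291 CPM in the controls, 7868, 10239 and 11012 in the ΔETreg mice, 9060.4, 12656 and 12150.3 in the ΔLTreg mice, and 10086, 10413 and 10001 in the ΔTreg mice, with a log2 fold change of 0.07 in ΔTreg skin (95% interval -0.29 to 0.43). Krt27 ranged over 3112 to 5344 CPM and Krt25 over 3674 to 4938 CPM. The median log2 fold change of the 8 members against control was 0.21 in ΔLTreg (0.33 without mouse 1) and 0.25 in ΔTreg skin, with 8 and 7 of 8 positive.

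None of the 15 hair shaft keratins passed in any of the 5 comparisons with all 11 libraries in the fit. With the libraries of ΔTreg and control mice alone, edgeR called 4 of them (Krt39 higher, and Krt36, Krt40 and Krt82 lower) and DESeq2 called 5 (Krt34 and Krt39 higher, and Krt35, Krt36 and Krt82 lower), with log2 fold changes between -0.39 and 0.41. Krt83, a type II keratin of the cortex, measured 2030.3 and 1521 CPM in the controls, 1421, 2369 and 2239 in the ΔETreg mice, 432, 1872 and 2331 in the ΔLTreg mice, and 1728, 1855 and 1782 in the ΔTreg mice. Krt33a, a type I keratin of the cortex, measured 1616 and 1303 CPM in the controls, 1278, 1853 and 1713 in the ΔETreg mice, 340.3, 1393 and 1782 in the ΔLTreg mice, and 1422, 1534 and 1523 in the ΔTreg mice. Krt81 ranged over 295 to 1721 CPM and Krt87 over 283 to 1604 CPM. In all 4 of these genes ΔLTreg mouse 1 lay far below every other mouse. The log2 fold change of Krt83 was -0.20 in ΔLTreg and 0.01 in ΔTreg skin. The 95% interval for the latter was -0.96 to 0.98, so that this value was loosely estimated in the fit of all 11 libraries. The smallest detectable change was not tested.

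ΔLTreg mouse 1 was far lower in the shaft than in the sheath. Of its shaft keratins, 14 of 15 were at their lowest of all mice, with a median of 25.6% of the control mean. Of its sheath keratins, 2 of 8, Krt26 and Krt73, were at their lowest, and the median was 95.2% of the control mean, against 123.9% and 129.3% in ΔLTreg mice 2 and 3. The ratio of shaft to sheath counts was 0.151, against 0.377 to 0.591 elsewhere. Keratin-associated protein genes, whose products crosslink shaft keratins, took 0.353% of counts, against 0.746 to 1.28%. Foxn1, a transcription factor needed for the hair shaft, was at 64.3 CPM against 129 or more. Dsg4, a desmosomal cadherin of the shaft, was at 62.8 CPM against 153 or more. Of the other genes listed as regulators of hair keratins, Hoxc13, Msx2, Dlx3, Ovol1, Cux1 and Sox21 were also at their lowest in this mouse. Lef1, Gata3, Vdr, Foxq1 and Runx1 were not. Of the other genes listed as sheath and shaft partners, Tgm1, Tgm3, Padi3, S100a3 and Selenbp1 were at their lowest in this mouse. Tchh, Tchhl1, Padi1, Prr9, Crym and Crisp1 were not. Skeletal muscle markers summed to 3347 CPM there and to 4173 CPM in ΔLTreg mouse 3, against 987 to 1897 CPM in the other mice. Their part in the shaft values was not tested.

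**Figure D5:**
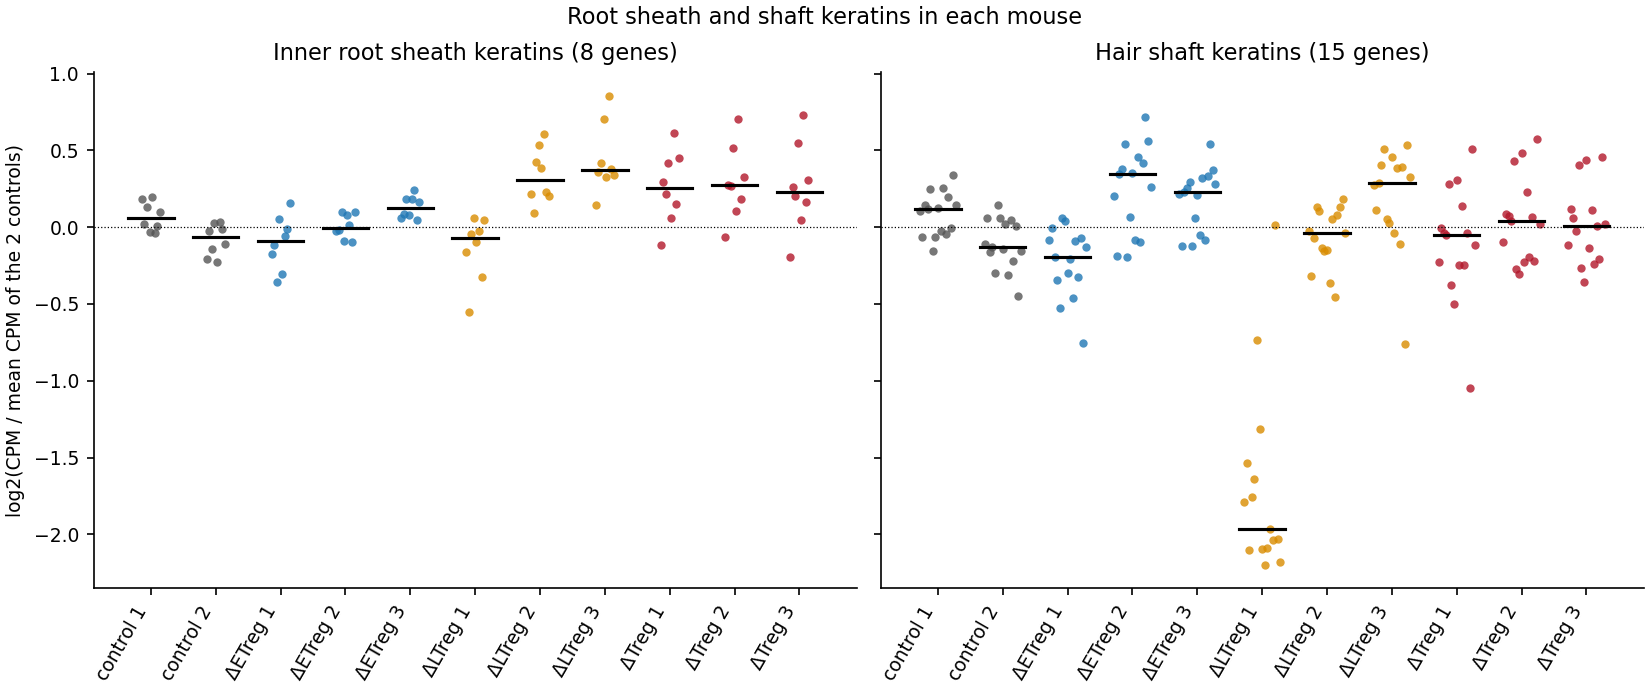
Level of each inner root sheath and hair shaft keratin relative to the control mean, in each of the 11 mice, on a log2 scale. Lines mark medians, and 14 of the 15 shaft keratins are at their lowest in ΔLTreg mouse 1, Krt84 being the exception.

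The class pattern of the shaft rested on that mouse. With it, 15 of 15 shaft keratins were negative in ΔLTreg against control (median log2 fold change -0.26) and 15 of 15 positive in ΔETreg against ΔLTreg (0.38). Without it, 9 of 15 were positive in the first (0.13) and 5 of 15 in the second (-0.02). Krt36, a scarce shaft keratin, then passed as lower in ΔTreg than in control (-0.39, adjusted p = 0.00378) and in ΔLTreg skin (-0.33, adjusted p = 0.0122). With all mice, 7 shaft keratins were positive and 8 negative in ΔTreg against control, from -0.44 (Krt84) to 0.51 (Krt86).

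Some members share sequence with a near copy. In the reference transcripts, 14.4% of the 150-base windows of Krt86, 14.3% of Krt81, 10% of Krt34, 7.64% of Krt33a and 6.35% of Krt31 also occur in another gene, so their split of reads is uncertain. Of the 8 genes called in ΔTreg against control, Krt8 alone had such windows (8.51%, with the pseudogene Krt8-ps).

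Among simple keratins, Krt8 (chromosome 15, 101996698 to 102004482, minus strand) was the only one that passed against control. It was at 12.3 and 17.1 CPM in the controls, 16.6, 14.9 and 14.5 in the ΔETreg mice, 13, 10.2 and 8.45 in the ΔLTreg mice, and 6.17, 7.63 and 8.75 in the ΔTreg mice. The ΔTreg mice were below all control and ΔETreg mice and overlapped the ΔLTreg mice. Krt8 was 1.94-fold lower in ΔTreg than in control skin (-0.96, SE 0.20, adjusted p = 0.00541), a call lost without control mouse 2 (-0.71, adjusted p = 0.0787). In ΔLTreg skin its value was -0.48 (adjusted p = 0.195). Krt18, its partner, measured 16.4 and 18.8 CPM in the controls, 18, 20.1 and 20.8 in the ΔETreg mice, 21.5, 13.4 and 14.9 in the ΔLTreg mice, and 12.5, 14.3 and 18 in the ΔTreg mice, with overlapping groups (-0.23, SE 0.19, adjusted p = 0.436 in ΔTreg against control). The log2 ratio of Krt8 to Krt18 was -0.27 ± 0.20 in control and -0.99 ± 0.07 in ΔTreg skin.

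Krt23, the most abundant of the class, was level at 244 to 304 CPM, and Krt7, of glands and ducts, ranged over 17.3 to 27.5 CPM. Krt20, a keratin of Merkel cells, was chosen after its values were seen, as 1 of the 7 members (15.2%) that passed the test of any difference among the 4 groups, where 25.3% of all genes did. It had 34 and 38 counts in the controls, 46, 50 and 23 in the ΔETreg mice, 33, 22 and 12 in the ΔLTreg mice, and 14, 25 and 18 in the ΔTreg mice, and its log2 fold change in ΔTreg skin was -1.08 (SE 0.37, adjusted p = 0.0581). The other members that passed were Krt1, Krt8, Krt14, Krt24, Krt28 and Krt72. The Merkel cell markers Atoh1, Isl1, Piezo2, Sox2 and Krt20 summed to 9.16 and 9.60 CPM in control and to 5.66 to 6.68 CPM in ΔTreg mice, with Atoh1 at 0.129 CPM or less throughout. None of the 4 tested passed in ΔTreg against control in the fit of all 11 libraries. Krt20 passed in edgeR with the libraries of those groups alone (adjusted p = 0.0238) and without ΔLTreg mouse 1 (adjusted p = 0.0446). The part of the Merkel cell markers in the Krt8 values was not tested. Krt90, which was not classed, stood at 5.74 and 6.33 CPM in the controls and 6.23, 6.01 and 4.8 in the ΔETreg mice. It stood at 3.22, 4.78 and 3.79 in the ΔLTreg mice and 4.72, 4.36 and 3.28 in the ΔTreg mice. Its log2 fold change in ΔTreg against control was -0.56 (SE 0.20, adjusted p = 0.0673), and it passed in edgeR without ΔLTreg mouse 1 (adjusted p = 0.0486).

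Lists of genes that work with keratins were read against the 21.5% of all genes that passed in ΔTreg against control, and none of their counts stood far above it. Of 12 regulators of hair keratins, 3 (25.0%) passed. Runx1, a transcription factor of follicle keratinocytes and of blood cells, was higher (0.53, SE 0.06, adjusted p = 0.000121) at 52.1 and 52.7 CPM in the controls, 59.6, 56 and 57.9 in the ΔETreg mice, 56.8, 58.5 and 63.9 in the ΔLTreg mice, and 77.5, 72.7 and 77.3 in the ΔTreg mice, and was also higher than in ΔLTreg skin (0.34, SE 0.05, adjusted p = 0.00106). Gata3, which directs inner root sheath fate, was higher (0.21, SE 0.06, adjusted p = 0.0419), and Lef1, a WNT effector of the precortex, was lower (-0.31, SE 0.09, adjusted p = 0.0275). Hoxc13, an activator of shaft keratin genes, was level at 205 to 249 CPM.

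Of 12 sheath and shaft partners, 2 (16.7%) passed in ΔTreg against control. Selenbp1 was lower there (-1.28, SE 0.15, adjusted p = 0.000147) and in ΔLTreg skin (-1.31, SE 0.15, adjusted p = 0.00115), and Crym was higher (0.46, SE 0.14, adjusted p = 0.0395). Selenbp1 read 40.9 and 53 CPM in the controls and 46.1, 46.4 and 41.5 in the ΔETreg mice. It read 16.2, 22 and 18.5 in the ΔLTreg mice and 16.4, 21.7 and 19.7 in the ΔTreg mice. As for Krt1, all 6 ΔLTreg and ΔTreg mice lay below the other 5. Of 15 desmosome genes, which anchor keratin filaments between cells, 2 (13.3%) passed. Dsg3 was higher in ΔTreg (0.32, SE 0.05, adjusted p = 0.00145) and in ΔLTreg skin (0.27, SE 0.05, adjusted p = 0.017), and Pkp2 was lower in ΔTreg skin (-0.29, SE 0.08, adjusted p = 0.0227). Of 11 hemidesmosome and basal genes, 1 (9.09%) passed in ΔTreg against control, the integrin subunit Itga3, which was lower (-0.26, SE 0.08).

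By way of comparison, Krt6a, Krt6b and Krt16, keratins of stressed epidermis that the rule left out, were higher in ΔTreg than in control skin. Krt6b, the one with the largest value (4.46, SE 0.37, adjusted p = 1.58e-05), read 3.4 and 2.95 CPM in the controls, 2.51, 3.32 and 3.51 in the ΔETreg mice, 4.65, 4.16 and 3.23 in the ΔLTreg mice, and 105, 60.6 and 44.5 in the ΔTreg mice.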

How the data were processed

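Whole-skin RNA of 11 mice was sequenced as paired-end reads. The authors trimmed reads with Trimmomatic 0.36, aligned them to GRCm38 with STAR 2.5.2b and counted unique exon reads with featureCounts of Subread 1.5.2, and deposited raw counts per gene. The annotation release and strand setting are not given in the sources used here. All columns were matched to labelled samples, and 0 were not. Groups came from the labels. Whether replicates shared a litter is not given. In the fit of all 11 libraries, p-values rest on a spread between mice that was estimated over all groups together.

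Counts were fitted in edgeR 4.0.16 (R 4.3.3, limma 3.58.1) with TMM scaling, a filter by group on low counts and 1 mean per group over all 11 libraries, and the quasi-likelihood test was adjusted by Benjamini-Hochberg over 18375 genes at 0.05. CPM are TMM-scaled. The alternatives were DESeq2 1.42.0, other scalings and filters, a fit with sex (read from the data), fits of only the groups compared, and leaving out single mice. Scripts were tested on simulated data. Named genes were the 4 most abundant of each class and, per comparison, the 4 called genes of largest change with a mean count of at least 50. Partners of pairs and the genes of fixed lists with the smallest p were added. Some other genes, Krt75, Krt79, Foxn1, Dsg4 and Hoxc13 among them, were named outside this rule. The members and lists were chosen with earlier results of these data known. Intervals are 95% and normal. Figures were drawn with matplotlib 3.10.9. Krt85 was not analysed here.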

Additional observations from a re-analysis of the deposited data

Results flagged for a closer look

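Krt1 differed between early and late depletion, by a log2 fold change of 1.28 between ΔETreg and ΔLTreg skin in a direct test of the difference (edgeR, adjusted p = 0.0162). All 3 ΔETreg mice were above all 3 ΔLTreg mice. The ΔETreg mice were harvested on P9 and the ΔLTreg mice on P13, so that age and the timing of depletion cannot be told apart.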

How the results depend on the processing

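No paired analysis was possible because the labels give no shared replicate numbers. The 11 called pairs of gene and comparison kept their direction in all 207 alternatives computed and lost the call in 35. Counts of called keratin genes moved most. With no filter on low counts they were 9 for ΔLTreg against control, 16 for ΔTreg against control, 10 for ΔTreg against ΔLTreg, 12 for ΔETreg against ΔLTreg and 21 for any difference, where 5.01, 11.6, 10.4, 6.08 and 15.6% of all genes passed. With only the libraries compared, edgeR gave 0, 16, 2 and 0 for the first 4 of these (0.880, 22.4, 14.7 and 3.14% of all genes), and DESeq2 gave 2, 19, 2 and 2 (4.03, 18.0, 13.8 and 7.01%). With at least 10 counts in every library, ΔTreg against ΔLTreg gave 0 (17.3%). With each mouse left out, the counts were 0 to 4, 3 to 13, 0 to 4, 0 to 5 and 3 to 11, with the highest of all but the third without ΔLTreg mouse 1, and 0 throughout for ΔETreg against control. Leaving out a control leaves 1, which is assumed to vary like the other groups. Without ΔLTreg mouse 1, 4.96, 24.8, 16.1 and 5.60% of all genes passed in the first 4 of these comparisons. For the other mice left out, the share of all genes is not given here. Whether those counts moved more than that share was therefore not tested. Class medians moved with single mice: epidermal -0.068 to 0.10 (ΔETreg against control), -0.107 to 0.133 (ΔLTreg against control) and -0.129 to 0.089 (ΔETreg against ΔLTreg), and simple keratins 0.0096 to 0.247, -0.206 to 0.022 and 0.042 to 0.384 in the same order, and -0.298 to 0.059 in ΔTreg against ΔLTreg. Signs turned for uncalled values only, all with a mouse left out. Krt71 in ΔTreg against control ranged from -0.13 (without control mouse 2) to 0.29. Krt83 ranged from -0.62 to 0.24 in ΔLTreg (0.02 without control mouse 1, 0.24 without ΔLTreg mouse 1) and from -0.19 (without control mouse 2) to 0.23 in ΔTreg against control (-0.02 without ΔTreg mouse 2). Krt1 in ΔETreg against control ranged from -0.51 to 0.15 (0.15 without control mouse 1, 0.05 without ΔETreg mouse 1). The cause was not tested. The intervals given show the uncertainty of each estimate in the fit of all 11 libraries. The smallest detectable change was not tested.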
